A study of Mus musculus with 6 samples.

Results

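Tendon and fibrous connective tissue genes were followed through 6 mouse samples of chondrocytes, the cells of cartilage, 3 from embryos and 3 from adults. The group was a fixed list of 10 genes, *Scx*, *Mkx*, *Tnmd*, *Kera*, *Tppp3*, *Tnc*, *Postn*, *Dpt*, *Fn1* and *Sparc*, and all 10 were found among the 22032 gene identifiers of the expression matrix. The embryonic samples were taken at E16.5 according to the methods, while the labels give 16.5 weeks, and the adult samples came from 2 month old animals, described in the methods as male B6 mice. All 6 samples are labelled as knee cartilage, and no animal was labelled as carrying a transgene or as treated. The cells were sorted as BMPR1B+ and ALP- after removal of lineage-positive cells (CD31, CD45 and Ter119 are named for the adults), so that the samples hold a surface-marker fraction of knee cartilage and not the whole tissue. BMPR1B is a receptor for bone morphogenetic proteins and ALP is alkaline phosphatase. The sources give neither the number of animals per sample nor the sex of the embryos.

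Tendon and articular cartilage arise from neighbouring progenitors of the limb. Scleraxis (*Scx*), a basic helix-loop-helix factor that binds DNA at E-boxes, marks tendon and ligament progenitors, and Mohawk (*Mkx*), a homeobox factor, is needed for tendon to build thick collagen fibrils. Tenomodulin (*Tnmd*), a membrane glycoprotein, and keratocan (*Kera*), a small leucine-rich proteoglycan, are products of differentiated tendon cells, and *Tppp3*, a tubulin polymerization-promoting protein, is found in tendon sheath and synovial joint lining. Tenascin-C (*Tnc*), periostin (*Postn*) and dermatopontin (*Dpt*) are secreted proteins of fibrous matrix. Fibronectin (*Fn1*) and SPARC (osteonectin) are abundant matrix glycoproteins of many mesenchymal tissues, cartilage included.

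All values are TPM, the length-corrected share of a gene among 1000000 transcripts of a sample, or log2(TPM + 1), the form in which they were deposited. TPM carries no sequencing depth, so counting error is unknown here, and errors are the SD over 3 samples. Stages were compared with limma, a linear model fitted across genes, over the 13125 genes whose mean reached 1 TPM, with Benjamini-Hochberg adjustment of p across all of them. Because 1 is added before the logarithm, changes of weakly expressed genes come out too small on this scale.

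Between the stages, 7 of the 10 genes fell in the adult samples, 2 rose and 1 did not pass the threshold of an adjusted p under 0.05. Among all genes tested 45.3% passed it, 21.4% as lower and 23.9% as higher in the adult samples. The genes that fell were *Scx*, *Tnmd*, *Kera*, *Tppp3*, *Tnc*, *Postn* and *Dpt*. Those that rose were *Fn1* and *Sparc*, and the remaining gene was *Mkx*. In all 9 genes that passed, the ranges of the stages did not overlap, which held for 56.5% of the genes tested, and for 25.9% with the embryonic samples above the adult ones. A log2 fold change of -2 or lower was seen in 6 of the 9 genes given one and in 7.6% of all genes tested. The median log2 fold change was -3.86 over the 10 genes, counting the fitted value of *Scx* that is not given singly, and 0.16 over all genes tested. The 7.6% and 0.16 over all genes tested also count genes at 0 in most samples of a stage. Less RNA of a gene per cell and fewer cells that express it cannot be told apart in these bulk samples.

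**Figure D1:**
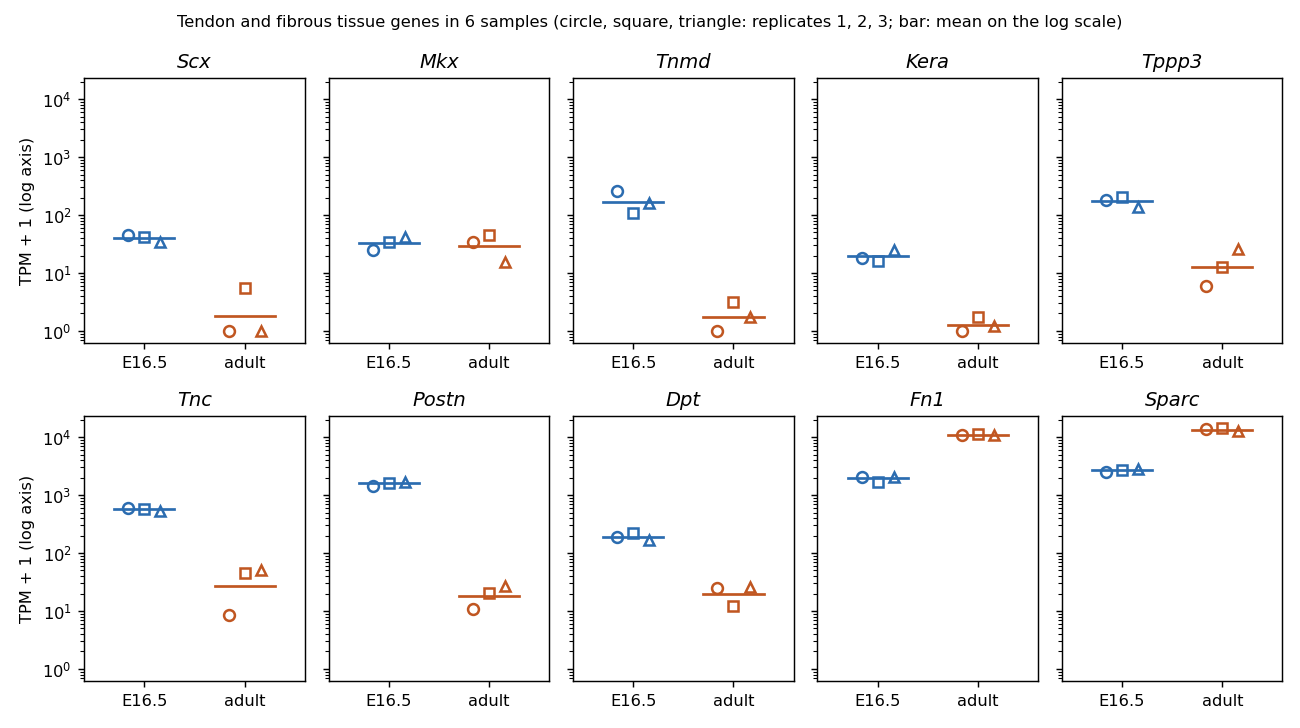
TPM + 1 on a log axis of the 10 genes in the 3 embryonic (E16.5) and 3 adult samples, with a marker per replicate and a bar at the mean of log2(TPM + 1) of each stage. *Mkx* overlaps between stages, *Fn1* and *Sparc* are higher in the adult samples, and the other 7 genes are lower.

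The sequences upstream of 4 of the genes that fell are shown, so that the start regions of genes that moved the same way can be set side by side. RefSeq windows (GRCm38.p6) were matched for 6 of the 10 genes, namely *Tnmd*, *Kera*, *Tnc*, *Postn*, *Dpt* and *Sparc*. The windows of *Kera* and *Sparc* lie inside the annotated gene, with 250 and 238 of their 250 bases in exons, and were left out of what follows. Each stretch below ends at the transcription start or before the first annotated exon base, is written 5′ to 3′ on the strand of the gene, and has matches to the E-box CANNTG and to TATAAA in capitals.
Tnmd, chrX:133850758-133850979, plus strand: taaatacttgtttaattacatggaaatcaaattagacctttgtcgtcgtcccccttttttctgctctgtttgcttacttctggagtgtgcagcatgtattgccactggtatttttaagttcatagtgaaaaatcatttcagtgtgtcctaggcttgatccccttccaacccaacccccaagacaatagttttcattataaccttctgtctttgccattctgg
Postn, chr3:54360857-54361106, plus strand: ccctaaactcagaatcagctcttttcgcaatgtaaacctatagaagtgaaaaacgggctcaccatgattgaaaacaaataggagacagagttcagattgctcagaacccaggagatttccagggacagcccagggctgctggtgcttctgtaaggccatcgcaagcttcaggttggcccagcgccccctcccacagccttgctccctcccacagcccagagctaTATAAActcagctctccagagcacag
Tnc, chr4:64047016-64047265, minus strand: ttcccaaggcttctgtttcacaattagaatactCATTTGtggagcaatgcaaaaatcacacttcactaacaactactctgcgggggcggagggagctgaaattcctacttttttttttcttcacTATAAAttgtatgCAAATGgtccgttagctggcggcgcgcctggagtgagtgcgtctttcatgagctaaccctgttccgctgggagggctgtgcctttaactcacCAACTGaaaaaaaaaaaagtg
Dpt, chr1:164796413-164796643, plus strand: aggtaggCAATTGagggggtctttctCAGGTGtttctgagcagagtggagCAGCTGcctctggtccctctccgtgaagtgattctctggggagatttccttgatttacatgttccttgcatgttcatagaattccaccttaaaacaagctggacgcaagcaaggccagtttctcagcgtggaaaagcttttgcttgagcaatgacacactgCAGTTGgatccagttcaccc

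The E-box CANNTG, the general recognition sequence of helix-loop-helix factors such as scleraxis, was searched on both strands in the 250 bases before each RefSeq start, of which 28 lie in annotated exons for *Tnmd* and 19 for *Dpt*. It was present in 2 of the 4 remaining windows, those of *Tnc* and *Dpt*, and in 66.2% of 32536 windows of the same length. The printed stretch of *Dpt* holds 4 matches and that of *Tnc* holds 3. No match lies in the windows of *Tnmd* and *Postn*. TATAAA, searched on both strands, was present in 2 of the 4 windows, against 12.3% of all windows. The match of *Postn* begins 26 bases before the start and that of *Tnc* 126 bases before it. GGGCGG, a GC box, was present in 1 window, that of *Tnc*, against 33.0% of all windows. TGANTCA, the AP-1 site, was in 0 of the 4 and in 6.73% of all windows. A match is a description of the letters only.

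Scleraxis transcripts were read first, as the earliest of the tendon genes in development. *Scx* (ENSMUSG00000034161) lies on chromosome 15 from 76457452 to 76459458 on the plus strand of GRCm38. It was at 44.2, 41.3 and 32.6 TPM at E16.5 and 0, 4.59 and 0 TPM in adults. All embryonic values lay above all adult values, and 2 of the 3 adult samples listed the gene at 0, so that no fold change is given (limma adjusted p = 0.000692). The gene sits inside the body of *Bop1*, on the opposite strand and with 0 exonic bases in common. *Bop1*, a ribosome biogenesis gene, was at 27.7 to 34.2 TPM in the embryonic and 35.0 to 56.0 TPM in adults. Set against *Sox9*, the master factor of chondrocytes, in the same sample, *Scx* stood at 0.0978, 0.105 and 0.0701 at E16.5 and 0, 0.00509 and 0 in adults.

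No difference between stages was detected in the second tendon transcription factor. *Mkx* (ENSMUSG00000061013, chromosome 18) was at 24.1, 33.3 and 41.5 TPM at E16.5 and 33.7, 44.6 and 14.6 TPM in adults. The highest and the lowest of the 6 values were both adult, and the stages overlapped. The log2 fold change was -0.19, with a 95% interval from -1.08 to 0.70 (limma adjusted p = 0.712), an interval wide enough to hold a change of either sign. The counting of *Mkx*, *Tnc* and *Fn1* could include reads of overlapping genes, which share 201, 176 and 292 exonic bases with them, and the use of strand is not stated.

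Products of differentiated tendon cells were nearly absent from the adult samples. *Tnmd* (ENSMUSG00000031250, chromosome X from 133850980 to 133865577) was at 262, 108 and 162 TPM at E16.5 and 0, 2.11 and 0.703 TPM in adults. Adult replicate 1 listed it at 0, and the highest adult value lay far under the lowest embryonic one. The log2(TPM + 1) fell from 7.39 ± 0.63 (SD, n = 3) to 0.80 ± 0.82 (SD, n = 3), a log2 fold change of -6.58 (SE 0.467, limma adjusted p = 1.57e-05), and the adult mean TPM was 0.529% of the embryonic mean.

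Keratocan followed the same direction at a lower level. *Kera* (ENSMUSG00000019932, chromosome 10 from 97606879 to 97613692) was at 17.1, 14.9 and 24.3 TPM at E16.5 and 0, 0.724 and 0.193 TPM in adults. All 3 adult values were under 1 TPM, and adult replicate 1 again stood at 0. The log2 fold change was -3.93 (SE 0.422, limma adjusted p = 0.000143).

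*Tppp3* (ENSMUSG00000014846, chromosome 8 from 105467493 to 105471526) was at 182, 206 and 138 TPM at E16.5 and 5.03, 11.6 and 24.8 TPM in adults. The stages did not overlap, although the adult samples differed by 4.92 times between the lowest and the highest, against 1.49 times in the embryonic samples. The log2 fold change was -3.80 (SE 0.451, limma adjusted p = 0.00025).

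Of the secreted fibrous matrix proteins, periostin fell most. *Postn* (ENSMUSG00000027750, chromosome 3 from 54361109 to 54391037) was at 1458, 1623 and 1700 TPM at E16.5 and 9.93, 19.4 and 26.3 TPM in adults. In embryonic cells it ranked 75th of all genes by mean TPM, in adult cells 7104th. The log2(TPM + 1) went from 10.64 ± 0.11 (SD, n = 3) to 4.19 ± 0.68 (SD, n = 3), a log2 fold change of -6.44 (SE 0.289, limma adjusted p = 1.19e-06).

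Tenascin-C, an adhesion-modulating protein of developing joints and tendon, had been the fourth most abundant of the 10 in the embryo. *Tnc* (ENSMUSG00000028364, chromosome 4 from 63959785 to 64047015) was at 596, 575 and 522 TPM at E16.5 and 7.66, 43.8 and 50.7 TPM in adults. Adult replicate 1 lay well under the other two adult samples, and all 3 lay under the embryonic range. The log2 fold change was -4.38 (SE 0.572, limma adjusted p = 0.00041).

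Dermatopontin, which helps to assemble collagen fibrils and is expressed by fibroblasts of most organs, kept the largest part of its level among those that fell and were given a fold change. *Dpt* (ENSMUSG00000026574, chromosome 1 from 164796644 to 164824266) was at 189, 222 and 166 TPM at E16.5 and 24.2, 11.1 and 24.5 TPM in adults. Here adult replicate 2 was the lowest sample, and the adult mean was 10.3% of the embryonic mean. The log2 fold change was -3.28 (SE 0.29, limma adjusted p = 5.14e-05).

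The 2 general matrix glycoproteins went the other way. *Fn1* (ENSMUSG00000026193, chromosome 1 from 71585520 to 71653200) was at 2068, 1697 and 2071 TPM at E16.5 and 10747, 11394 and 10867 TPM in adults. The adult values lay within 1.06 times of each other and the mean was 5.66 times the embryonic mean. The log2 fold change was 2.50 (SE 0.136, limma adjusted p = 3.37e-06).

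SPARC, a collagen- and calcium-binding glycoprotein, rose alongside. *Sparc* (ENSMUSG00000018593, chromosome 11 from 55394500 to 55423183) was at 2465, 2676 and 2869 TPM at E16.5 and 13686, 14141 and 12744 TPM in adults. The adult mean was 5.06 times the embryonic mean, with a log2 fold change of 2.34 (SE 0.134, limma adjusted p = 4.66e-06). Among all genes *Sparc* ranked 27th by mean TPM in the embryonic and 3rd in the adult samples, and *Fn1* ranked 48th and 6th.

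**Figure D2:**
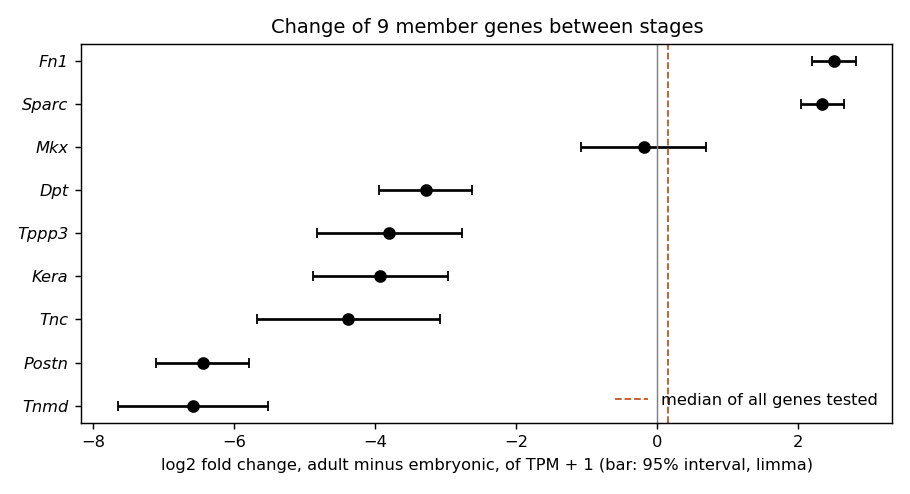
Log2 fold change of TPM + 1 (adult minus embryonic) of 9 of the 10 genes, with bars for the 95% interval of the limma fit and a dashed line at the median of all genes tested (0.16). *Scx* is left out because 2 adult samples list it at 0, the interval of *Mkx* crosses 0, and the 8 others lie clear of it, from -6.58 for *Tnmd* to 2.50 for *Fn1*.

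As shares of all transcripts, the 7 genes that fell held 0.275%, 0.279% and 0.275% of TPM at E16.5 and 0.00468%, 0.00934% and 0.0127% in the adult samples. *Fn1* and *Sparc* together held 0.453%, 0.437% and 0.494% at E16.5 and 2.44%, 2.55% and 2.36% in the adult samples. The sum over all 10 genes therefore rose, from 0.72% to 0.773% of TPM in the embryo to 2.38% to 2.57% in the adult, and the rise of the sum was carried by 2 genes.

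The order of the levels was set by different neighbours at each stage. In the embryo it ran *Sparc*, *Fn1*, *Postn*, *Tnc*, *Dpt*, *Tnmd*, *Tppp3*, *Scx*, *Mkx* and *Kera* by mean TPM. The ranges of *Fn1* and *Postn* overlapped, as did those of *Dpt*, *Tnmd* and *Tppp3* as neighbours and of *Scx*, *Mkx* and *Kera*, so that these neighbours were not separated by the spread of the samples. In the adult it ran *Sparc*, *Fn1*, *Tnc*, *Mkx*, *Dpt*, *Postn*, *Tppp3*, *Scx*, *Tnmd* and *Kera*. *Sparc* and *Fn1* were separated from each other and from all that followed, while *Tnc*, *Mkx*, *Dpt*, *Postn* and *Tppp3* overlapped from neighbour to neighbour between means of 34.1 and 13.8 TPM, and *Scx*, *Tnmd* and *Kera* overlapped at means of 1.53, 0.938 and 0.306 TPM.

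Ratios within a sample do not depend on how samples are scaled to each other, and a few pairs were chosen after the values were seen. *Postn* per *Fn1* was 0.705, 0.957 and 0.821 at E16.5 and 0.000924, 0.0017 and 0.00242 in adults. *Sparc* per *Fn1* was 1.19, 1.58 and 1.39 in the embryonic and 1.27, 1.24 and 1.17 in adults, and these ranges overlapped. The ratio of periostin to fibronectin thus differed between stages in every sample, and that of SPARC to fibronectin did not separate them. *Postn* per *Col1a1*, a chain of the main collagen of tendon, was 0.262, 0.334 and 0.285 in embryonic and 0.0583, 0.0322 and 0.0413 in adult cells. *Col1a1* itself fell, from a mean of 5462 to one of 470 TPM (log2 fold change -3.75, limma adjusted p = 0.000221).

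The adult samples were less alike than the embryonic ones in these genes. The SD of log2(TPM + 1) was larger in the adult samples for 8 of the 10 genes, with medians of 0.74 and 0.22, where over all genes tested the medians were 0.35 and 0.26. The exceptions were *Fn1* and *Sparc*, at adult means of 11000 and 13520 TPM, where the other 8 had adult means of 34.1 TPM or lower. Spread was not compared with that of genes at a like level. Adult replicate 1 was lowest, or level with the lowest at 0, in 7 of the 10 genes and highest in none. How often this held over all genes was not counted. Adult replicates 1, 2 and 3 listed 8080, 7570 and 8294 of all gene identifiers at 0. The sort marker *Bmpr1b* was at 4.51 TPM in that sample and at 18.5 and 13.4 TPM in adult replicates 2 and 3, and *Col2a1* was highest in it, at 7084 TPM against 3166 and 3869 TPM. The part of these differences between samples in the values above was not tested, and all 9 genes passed the threshold without that sample.

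**Figure D3:**
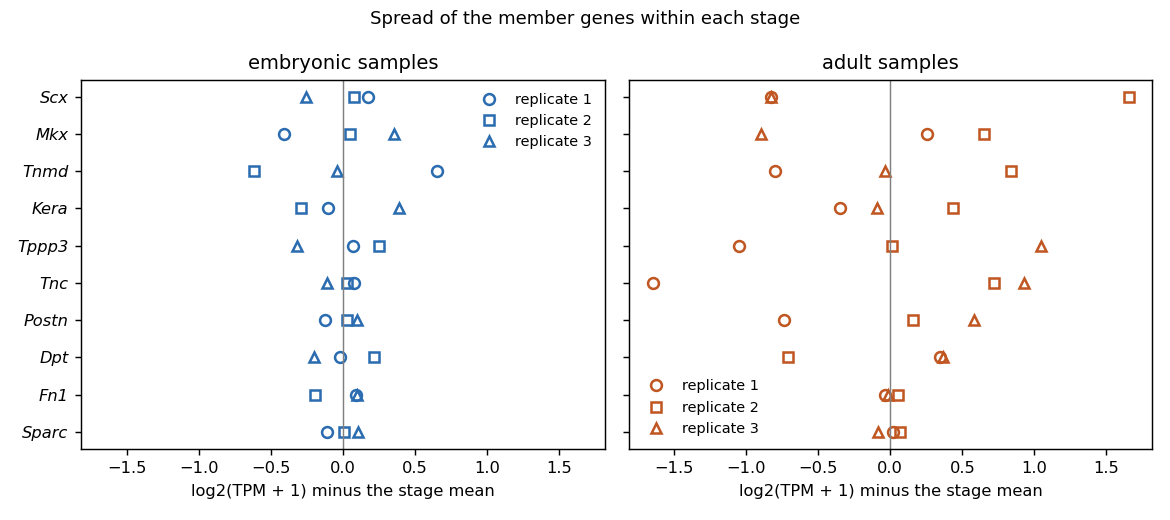
Deviation of each sample's log2(TPM + 1) from the mean of its stage, for the 10 genes, embryonic samples at left and adult samples at right, with a marker per replicate. The adult points are spread more widely in 8 of the 10 genes, and those of *Fn1* and *Sparc* are close together.

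Relatives of the 10 genes were read to see how far a change was shared within a family. Chondromodulin (*Cnmd*), the cartilage counterpart of tenomodulin, was at 1676, 1968 and 1707 TPM at E16.5 and 312, 239 and 281 TPM in adults (log2 fold change -2.69, limma adjusted p = 2.25e-06). *Tnmd* per *Cnmd* was 0.156, 0.0551 and 0.0948 at E16.5 and 0, 0.00882 and 0.00251 in adults, so that the tendon form fell further than the cartilage form in these samples. *Tgfbi*, the other member of the periostin family, went from 812, 738 and 734 TPM to 79.7, 68.6 and 101 TPM (log2 fold change -3.20). *Postn* per *Tgfbi* was between 1.80 and 2.32 at E16.5 and between 0.125 and 0.283 in adults.

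The keratocan relatives did not move together. *Lum* (-1.25), *Ogn* (-3.37) and *Epyc* (-6.25) fell on the log2 scale, *Prelp* (1.92) and *Omd* (3.74) rose, and *Fmod* (0.49, limma adjusted p = 0.068) and *Optc* (0.74, limma adjusted p = 0.342) did not pass the threshold. Of the tenascins, *Tnn* had a log2 fold change of -1.61 (limma adjusted p = 0.0317) with overlapping stages, and *Tnxb*, the tenascin of loose connective tissue, one of 0.65 without passing (limma adjusted p = 0.0586). *Tnr* had a mean under 1 TPM and was not tested. In the SPARC family *Sparcl1* (0.82), *Smoc1* (0.82) and *Smoc2* (1.79) rose with *Sparc*, whereas *Spock2* (-2.57) and *Fstl1* (-3.69) fell. *Fstl1*, a secreted protein with a SPARC-like domain, was at 2049, 1854 and 2020 TPM at E16.5 and 114, 96.7 and 321 TPM in adults. *Spock3* was at 7.98, 8.73 and 5.27 TPM at E16.5 and 0, 0 and 0.0734 TPM in adults.

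Relatives of the transcription factors reached at most 29.0 TPM, in *Irx3*. *Tcf15*, the sister gene of *Scx*, was at 0.429, 5.25 and 4.90 TPM at E16.5 and 0 in each adult sample. Among the Iroquois genes, which share the homeobox class of *Mkx*, *Irx3* (1.92, limma adjusted p = 0.0016) and *Irx1* (1.86, limma adjusted p = 0.0377) rose on the log2 scale, and *Irx2* (limma adjusted p = 0.102) and *Irx5* (limma adjusted p = 0.884) did not pass the threshold. *Tppp*, the brain form of the *Tppp3* family, was at 3.73, 3.48 and 0.266 TPM at E16.5 and 0 in every adult sample. Of the 27 relatives, 23 were tested, of which 10 (43.5%) fell and 7 (30.4%) rose, against 21.4% and 23.9% of all genes tested, and the alternatives gave 7 to 11 lower and 5 to 9 higher.

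**Figure D4:**
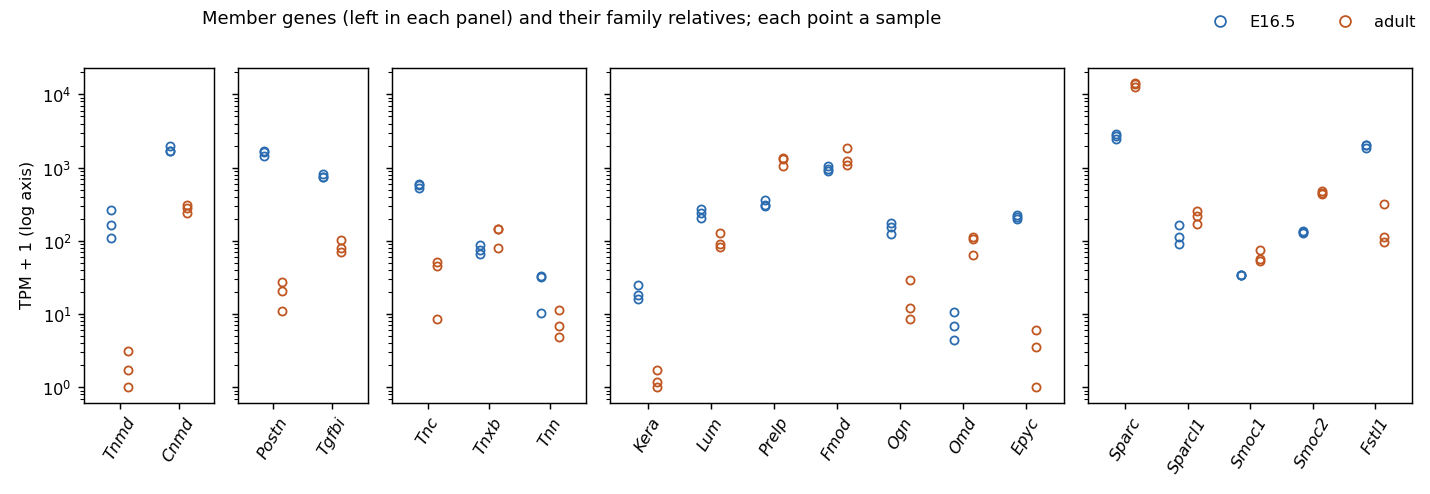
TPM + 1 on a log axis of *Tnmd*, *Postn*, *Tnc*, *Kera* and *Sparc*, each at the left of its panel, and of tested relatives of the same family, with a point per sample in 3 embryonic (E16.5) and 3 adult samples. *Tgfbi* and *Cnmd* are lower in the adult samples as their partners are, and the relatives of *Kera* and *Sparc* move both ways.

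Other regulators of tendon formation fell or did not pass. Of 12 such genes, 9 fell and 0 rose (21.4% and 23.9% of all genes tested), with a median log2 fold change of -1.45. *Gli1*, a transcription factor that reports hedgehog signaling and marks the tendon attachment, went from 23.4, 21.2 and 26.9 TPM to 1.70, 1.28 and 2.18 TPM, a log2 fold change of -3.20. *Eya2*, a transcriptional co-activator, fell by 3.93 and its paralog *Eya1* by 2.37 on the log2 scale. *Egr1*, which is induced by mechanical load, had a log2 fold change of -0.20 (limma adjusted p = 0.331), and *Etv4* had one of -0.32 (limma adjusted p = 0.613).

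Transforming growth factor beta is a main inducer of *Scx* and of fibrous matrix. Of 9 ligand, receptor and Smad genes, 5 (55.6%) fell and 1 (11.1%) rose, against 21.4% and 23.9% of all genes tested, with a median of -0.47 against 0.16. The alternatives gave 4 to 6 lower. The ligands were divided, *Tgfb3* going from 86.6, 87.6 and 70.2 TPM to 14.6, 17.1 and 13.0 TPM (log2 fold change -2.37) and *Tgfb2* falling by 2.12, while *Tgfb1* went from 61.8, 56.4 and 51.6 TPM to 141, 131 and 152 TPM (log2 fold change 1.31).

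Among 24 other genes of fibrous matrix, 11 (45.8%) fell and 7 (29.2%) rose, against 21.4% and 23.9% of all genes tested, with a median log2 fold change of -0.22. *Eln*, encoding elastin, fell by 7.92, and *Cilp* and *Cilp2*, encoding cartilage intermediate layer proteins, rose by 7.01 and 6.09 on the log2 scale. Decorin (*Dcn*), a collagen-binding proteoglycan to which dermatopontin binds, was at 217, 241 and 326 TPM at E16.5 and 6348, 5026 and 5549 TPM in adults, and *Dpt* per *Dcn* went from 0.511 to 0.921 in the embryonic to 0.00221 to 0.00442 in the adult samples. Of 13 matricellular genes, secreted modulators like *Tnc*, *Postn* and *Sparc*, 7 (53.8%) fell and 5 (38.5%) rose. *Ccn4* fell by 4.47, *Thbs2* by 3.43 and *Tgfbi* by 3.20. *Ccn2*, a growth factor-binding protein of cartilage, and *Spp1*, encoding osteopontin, rose by 2.52 and 2.45, from means of 972 and 609.5 TPM to 5639 and 3417 TPM. The summed level of the 13 genes was 5868 to 6313 TPM at E16.5 and 11042 to 11646 TPM in adults.

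The receptors through which cells bind fibronectin, tenascin-C and periostin were measured by 11 genes, of which 9 were tested. Of the 9, 4 (44.4%) fell and 2 (22.2%) rose, against 21.4% and 23.9% of all genes tested. *Itga8*, a subunit of a receptor for fibronectin and tenascin-C, went from 103, 78.2 and 70.4 TPM to 7.11, 1.18 and 0.943 TPM, a log2 fold change of -4.69. *Itga9*, a subunit of a tenascin-C receptor, fell by 2.85 on the log2 scale. *Itga5*, the subunit of the classical fibronectin receptor, was at 484, 478 and 524 TPM at E16.5 and 208, 231 and 201 TPM in adults, opposite to *Fn1*, and *Fn1* per *Itga5* went from 3.55 to 4.28 in the embryonic to 49.3 to 54.1 in the adult samples. The receptor genes that rose were *Sdc4*, a syndecan (log2 fold change 1.19, limma adjusted p = 0.000593), and *Itgb8* (1.29, limma adjusted p = 0.0303). The call of *Itgb8* was lost in 5 of the 6 fits that left out a sample, all but that without adult replicate 1 (adjusted p from 0.0605 to 0.088), and with the replicate block (adjusted p = 0.0598).

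**Figure D5:**
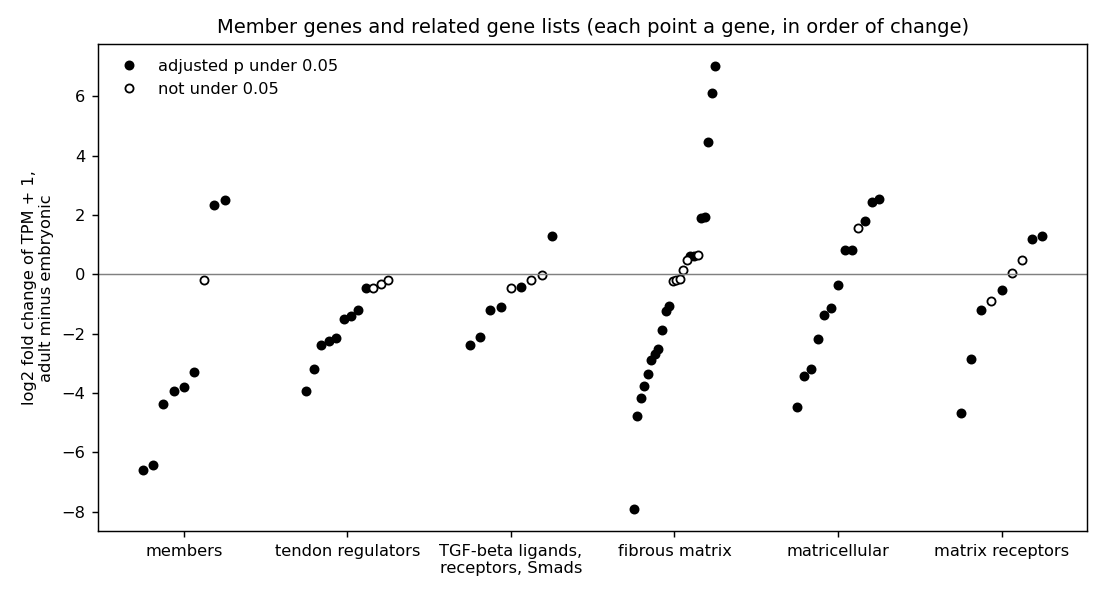
Log2 fold change of TPM + 1 (adult minus embryonic) of the 10 genes and of 5 related lists, each point a gene, filled where the limma adjusted p is under 0.05, with genes listed at 0 in most samples of a stage left out. The tendon regulators lie at or under 0, and the fibrous matrix genes run from -7.92 for *Eln* to 7.01 for *Cilp*.

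Markers of the cell types were read in the same samples. Of 13 chondrocyte markers, none was at 0 at E16.5 and *Matn1* was at 0 in each adult sample, and the summed level was 28418 to 30281 TPM in the embryonic and 8606 to 11484 TPM in adults. Of the 13, 10 (76.9%) fell and 2 (15.4%) rose, against 21.4% and 23.9% of all genes tested. *Matn3*, *Col9a1* and *Col9a2* fell by 6.05, 5.48 and 2.93 on the log2 scale. The transcription factors *Sox9* and *Sox5* rose, by 0.69 and 0.62, and *Sox6* fell by 0.93 (limma adjusted p = 0.00687). *Acan*, encoding aggrecan, had a log2 fold change of 0.61 (limma adjusted p = 0.0717). Markers of stromal fibroblasts, which also express *Dpt*, moved with the genes that fell. Of 10, 6 fell and 0 rose, *Cd248* by 5.04, *Clec3b* by 3.90 and *Pi16* by 2.65, and their sum went from 872 to 1140 TPM in the embryonic to 484 to 858 TPM in adults, while *Pdgfra*, *Thy1*, *Ly6a* and *Pdpn* did not pass the threshold. Of 4 perivascular markers 3 were tested and all 3 fell, *Mcam* by 5.15, *Acta2* by 2.32 and *Rgs5* by 2.18. The sum of the 4 went from 141 to 145 TPM to 8.63 to 9.94 TPM. The part of these cell types in the values of the 10 genes was not tested.

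Other lists covered further cell types, of which muscle and skin had no marker named in the sort. Muscle markers summed to 70.5 to 71.9 TPM in the embryonic and 4.25 to 18.6 TPM in adults. Of 6 tested, 1 fell, *Des*, by 4.69, and it held 46.0 to 50.6 TPM of the embryonic sum. Endothelial markers summed to 10.9 to 33.3 TPM in the embryonic and 3.79 to 13.0 TPM in adults. *Tek* fell by 3.04, the only 1 of 3 tested that passed. The sort marker *Pecam1* went from 1.29 to 1.75 TPM to 2.79 to 6.87 TPM without passing (limma adjusted p = 0.123). Leukocyte markers summed to 5.31 to 13.7 TPM in the embryonic and 19.0 to 66.8 TPM in adults. *Cd68* rose by 1.73, and *Lyz2* did not pass (limma adjusted p = 0.0642). The defining marker *Ptprc* was at 0, 0.0613 and 0 TPM at E16.5 and 2.29, 0 and 1.03 TPM in adults. None of the 3 erythroid markers tested nor the 1 skin marker tested passed the threshold, and *Krt5* and *Krt14* were at 0 in all 6 samples. Osteoblast markers rose in sum, from 58.7 to 87.0 TPM to 301 to 453 TPM. Of 6 tested, 3 rose and 1 fell (23.9% and 21.4% of all genes tested). *Ibsp* was higher by 5.58 and *Alpl* by 1.13 on the log2 scale, and *Dmp1* fell by 2.92. *Bglap* rose from 0 in each embryonic sample to 26.8, 15.8 and 83.9 TPM in adults (limma adjusted p = 0.000205). *Runx2* (log2 fold change -0.72, limma adjusted p = 0.0659) and *Sp7* (-0.58, limma adjusted p = 0.45) did not pass the threshold.

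Across the 6 samples, the genes whose log2(TPM + 1) ran most closely with each of the 10 were named as a description, since the samples form 2 stage clusters and a large r mostly reflects the stage gap. *Scx* ran closest to *Epcam* and *Appbp2*, *Tnmd* to *Trib2* and *Rnps1*, *Kera* to *Mfsd2a* and *Rybp*, *Tppp3* to *Rnf150* and *Arih1*, *Tnc* to *Birc5* and *Ppp2r2a*, *Postn* to *Ptx3* and *Elf4*, and *Dpt* to *Eef1a1* and *Sub1*. *Fn1* ran closest to *C3* and *Hip1r* and *Sparc* to *Pls3* and *Layn*. *Mkx*, which has no stage gap, ran closest to *Zkscan6* and *Emc8*, with Pearson's r of 0.9937 and 0.9824 over 6 samples.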

How the data were processed

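RNA-seq was measured in 3 embryonic and 3 adult mouse samples, which the study describes as biological replicates. The p-values set the stage difference against the spread between these samples, with variance estimates that draw on all genes tested. The authors mapped reads to GRCm38 with RefSeq annotations, estimated levels with RSEM (version not given in the sources used here) and deposited log2(TPM + 1) per gene, which sums to 1000000 TPM in each sample. The labels name a Kapa mRNA-Seq kit, while the methods describe random and poly(T) primed Nugen cDNA. Neither states that strand was used.

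Symbols and positions came from GENCODE M21 (GRCm38) for 21902 of 22032 identifiers, and where a symbol was shared the identifier with the higher mean was used. limma 3.58.1 in R 4.3.3 (lmFit, eBayes with trend) was run on the deposited log2 values (pseudocount 1) of genes whose mean reached 1 TPM, with stage as the only term. EBSeq, named in the methods, was not used. The fit was tested on simulated data in which each gene had the same SD in both stages. That test does not cover genes whose SD differs between the stages, such as *Scx* and *Tnc*. A gene listed at 0 in at least 2 samples of a stage was given no fold change. The members and gene lists were chosen with earlier results of these data known. Besides the 10 genes, named genes were, in each list, the 3 largest changes among called genes whose stages did not overlap, the tested relatives, and the 2 genes nearest to each by Pearson's r. Others were chosen after their values were seen. They were *Dcn*, *Itga5*, *Egr1*, *Sox9*, *Bop1*, *Sox5*, *Sox6*, *Acan*, *Ccn2*, *Spp1* and *Sdc4*. *Itgb8*, *Bglap*, *Col1a1*, *Col2a1*, *Bmpr1b*, genes that did not pass and markers at 0 were chosen in the same way. Alternatives were another pseudocount, filters, scalings, variance models, a replicate block, a threshold of 0.01 and each sample left out in turn.

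Promoter windows are RefSeq's, taken at the start nearest to the GENCODE gene start. Python 3.11.15, pandas 2.3.3, numpy 2.4.6, scipy 1.17.1 and matplotlib 3.10.9 were used.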

Additional observations from a re-analysis of the deposited data

How the results depend on the processing

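The counts of 7 genes lower and 2 higher among the 10 were the same under every alternative run, and each of those 9 genes passed the threshold in each of them. Leaving out each sample in turn gave log2 fold changes from -7.00 to -6.18 for *Tnmd*, -4.15 to -3.73 for *Kera*, -6.73 to -6.07 for *Postn*, -4.84 to -3.55 for *Tnc*, -3.46 to -2.92 for *Dpt*, -4.32 to -3.27 for *Tppp3*, 2.41 to 2.55 for *Fn1* and 2.29 to 2.39 for *Sparc*. A pseudocount of 0.1 gave -8.21 for *Tnmd* and -6.00 for *Kera*, whose adult values lie near 0. The adjusted p of *Scx* lay between 6.27e-05 and 0.00641 over the alternatives. *Mkx* passed under none of them (adjusted p from 0.322 to 0.988), and its log2 fold change ran from -0.51 to 0.26 as samples were left out, turning its sign without adult replicate 3 (0.26). The median change of all genes, 0.16, was 0.03 with median-of-ratios scaling and 0.25 without the 20 highest genes, which gave 2613 higher and 3234 lower and 3509 higher and 2526 lower genes, against 3140 and 2809.

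A threshold of 0.01 left 1855 genes higher and 1863 lower, by its construction. The 2 matrix receptor genes that rose became 1, *Itgb8* dropping out, with a mean of at least 5 TPM, with a threshold of 0.01, with the replicate block, and, over the fits that left out a sample, in 5 of 6 (range 1 to 2). *Itgb8* is not among the genes tested at that mean. The cause of the other losses was not tested. Of all recomputed values, 405 kept their direction and side of the threshold or, for counts, stayed within 1.5 times. With the replicate number as a block the counts over all genes were 2871 higher and 2559 lower. Deviations of same-numbered samples had r of -0.009, -0.017 and -0.022 across genes, so that the numbers gave no sign of pairing. TPM holds no depth, and the counting error of values near 0 in *Scx*, *Tnmd* and *Kera* is unknown.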
